A study of Mus musculus with 27 samples.

Results

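The clade B serpins are the intracellular branch of the serine protease inhibitor superfamily. They were taken here as every gene symbol of the deposited count table that consists of Serpinb, a number and an optional letter, and 26 of the 33924 symbols fit. RNA was sequenced in 27 libraries from mouse thyroid, in 9 groups of 3. All 24 tumor libraries came from 12 cell lines grown out of thyroid tumors with the Braf V600E allele, an activated form of the RAF kinase at the head of the MAPK cascade. The groups were Arid1a KO, Arid2 KO and Smarcb1 KO lines, each also carrying Braf V600E, and lines with Braf V600E alone (Braf), with 3 lines per genotype. The deleted genes encode subunits of the SWI/SNF complex, which moves nucleosomes. Each line gave 1 library after 8 days of CH5126766 (CKI), which inhibits both RAF and MEK, at 300 nM, and 1 in vehicle. The labels' wording does not make clear whether the vehicle arm also received the bovine TSH given with CKI. The remaining 3 libraries (WT) are marked wildtype and untreated, but the source field names a tumor cell line for them too. The lines were grown out of digested tumors in medium with serum, and the labels name no promoter, Cre driver or clone for the alleles.

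A serpin offers a protease a loop that resembles its substrate. When the loop is cut, the serpin snaps into a new fold and traps the protease in a covalent complex, so that each molecule works once. Most serpins are secreted, whereas those of clade B lack a classical signal peptide and act in the cytosol and nucleus, where they protect cells from their own proteases or from those of attacking lymphocytes and granulocytes. In rodents the granzyme, cathepsin and elastase inhibitors of this clade have expanded into families of close paralogs.

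The labels were checked against the counts first. In vehicle, Smarcb1 RNA came to 0.461 ± 0.612 CPM in its KO lines and 74.8 ± 9.04 CPM in lines with Braf V600E alone, and Arid1a averaged 80.5 ± 13.8 CPM in Arid1a KO lines and 132 ± 3.86 CPM in Braf lines (SD, n = 3 each). CPM is a gene's count scaled to a library of common size, after TMM adjustment of the totals. Arid2 averaged 94 ± 14.3 CPM in Arid2 KO lines and 97.5 ± 10.2 CPM in Braf lines, and counts over the whole gene do not show whether part of it was deleted. Total counts lay between 18417255 and 27257703, except for 2 Smarcb1 KO libraries under CKI, those of line BS53958 (11684983) and line BS53965 (2884130). The thyroid marker Tg ranged from 226000 to 344000 CPM in WT libraries and reached at most 17.4 CPM in any vehicle-treated tumor line. Leukocyte markers, of interest because Serpinb1a and Serpinb9 are abundant in leukocytes, summed to between 2.38 and 25.2 CPM in the tumor lines and between 294 and 472 CPM in WT libraries (10 genes). Epithelial markers were uneven among Braf lines, with Epcam between 0.361 and 398 CPM in vehicle. In bulk RNA, fewer cells of a type and less RNA per cell cannot be told apart.

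In the RefSeq annotation 11 members lie close together on chromosome 1 and 15 on chromosome 13. The order on chromosome 1 runs from Serpinb5 over Serpinb12, Serpinb13, the Serpinb3 genes, Serpinb11, Serpinb7 and Serpinb2 to Serpinb8, with Serpinb10, not analysed here, before the last. The chromosome 13 order starts with Serpinb1a, Serpinb1c, Serpinb6b, Serpinb9, Serpinb9b and Serpinb1b, which follow each other with no other protein-coding gene between them, and ends with Serpinb6c and Serpinb6a. Serpinb9h, not analysed here, stands between Serpinb9f and Serpinb9g. Promoter sequences from RefSeq, each running from 250 bases before to 50 bases after the annotated start on build GRCm38.p6, were at hand for 24 members. None was at hand for Serpinb1a or Serpinb13. They are shown for the chromosome 13 neighbours Serpinb6b, Serpinb9 and Serpinb9b, whose RNA rose under CKI, and for Serpinb2 and Serpinb8 on chromosome 1, which were not called under CKI and hold a match to the AP-1 motif. AP-1 factors are nuclear endpoints of MAPK signaling. Capitals mark matches to a loose AP-1 pattern, TGANTCA with any middle letter, which are TGAATCA in Serpinb2 and TGAGTCA in Serpinb8. In Serpinb9 they mark the match to an interferon response element (the letters GAAA repeated after a gap of 2 bases, here on the opposite strand). The windows are chr13:32965011-32965310, chr13:33004291-33004590, chr13:33027164-33027463, chr1:107511173-107511472 and chr1:107589756-107590055, all on the plus strand.
Serpinb6b: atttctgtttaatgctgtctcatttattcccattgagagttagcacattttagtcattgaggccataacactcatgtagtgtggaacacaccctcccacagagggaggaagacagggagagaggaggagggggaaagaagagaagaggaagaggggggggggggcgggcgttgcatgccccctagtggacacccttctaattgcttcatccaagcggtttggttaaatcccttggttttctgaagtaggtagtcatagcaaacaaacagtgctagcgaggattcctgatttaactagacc
Serpinb9: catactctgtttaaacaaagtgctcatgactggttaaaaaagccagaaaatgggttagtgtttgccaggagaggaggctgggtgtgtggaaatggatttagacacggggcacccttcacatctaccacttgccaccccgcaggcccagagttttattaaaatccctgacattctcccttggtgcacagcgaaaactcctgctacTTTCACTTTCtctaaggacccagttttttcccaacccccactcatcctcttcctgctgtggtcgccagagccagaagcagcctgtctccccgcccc
Serpinb9b: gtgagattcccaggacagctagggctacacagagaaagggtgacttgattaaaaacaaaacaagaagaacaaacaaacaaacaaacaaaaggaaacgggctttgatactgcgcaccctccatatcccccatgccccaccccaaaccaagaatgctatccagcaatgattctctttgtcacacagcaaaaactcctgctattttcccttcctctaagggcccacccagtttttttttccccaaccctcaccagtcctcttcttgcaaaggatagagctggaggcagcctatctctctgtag
Serpinb2: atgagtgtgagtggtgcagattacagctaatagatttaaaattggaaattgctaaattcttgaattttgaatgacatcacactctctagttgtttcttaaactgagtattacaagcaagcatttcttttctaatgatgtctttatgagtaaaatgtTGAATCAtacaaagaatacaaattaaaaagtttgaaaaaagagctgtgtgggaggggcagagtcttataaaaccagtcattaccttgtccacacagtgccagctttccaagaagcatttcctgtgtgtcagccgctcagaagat
Serpinb8: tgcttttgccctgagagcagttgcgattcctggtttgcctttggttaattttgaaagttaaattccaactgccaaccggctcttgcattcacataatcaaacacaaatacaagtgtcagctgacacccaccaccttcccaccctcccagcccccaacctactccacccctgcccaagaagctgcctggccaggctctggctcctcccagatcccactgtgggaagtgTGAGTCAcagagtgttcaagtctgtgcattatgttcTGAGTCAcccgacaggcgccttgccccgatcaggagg

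A match to the loose AP-1 pattern TGANTCA stood in the promoters of 6 of 10 members with a sequence on chromosome 1 (Serpinb2, Serpinb5, Serpinb7, Serpinb8, Serpinb11 and Serpinb12) and in 0 of 14 on chromosome 13, while 7.81% of 32817 mouse promoters of the same length held one. Only Serpinb7 and Serpinb8 held TGAGTCA, a form of the stricter AP-1 site with G or C in the middle. Serpinb2, Serpinb5, Serpinb11 and Serpinb12 held only TGAATCA or TGATTCA, so their matches are weaker as AP-1 sites. Matches were sought on both strands, and the pattern TGANTCA reads the same on either. Some members, among them Serpinb2, Serpinb12 and Serpinb6a, have further windows from other annotated starts and were counted if any window matched. The shares of all promoters are per window, so they are only a rough scale for the member counts. The interferon response element was found in Serpinb9 and Serpinb6a, against 3.43% of all promoters. The letters TATAAA occurred in 7 of 10 members on chromosome 1 and in 2 of 14 on chromosome 13, against 13.6% of all promoters. Of the other 4 motifs searched, the ETS core CCGGAA matched in Serpinb6a and Serpinb9c (14.9% of all promoters), the TEAD core GGAATG in 4 members (14.7%), the RUNX core TGTGGT in 5 (16.8%) and the cyclic AMP response element TGACGTCA in 0 (1.79%). These matches describe letters in the windows, some motifs can overlap each other, and binding was not measured.

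Serpinb6a, whose human counterpart inhibits cathepsin G, was the member with the highest and steadiest level. It ranged from 109 to 865 CPM over the 24 tumor libraries, with a median of 270 CPM, and from 180 to 201 CPM in WT libraries. Serpinb9, the mouse inhibitor of granzyme B that shields cells from cytotoxic granules, followed with a median of 44.4 CPM over the tumor libraries and a range of 9.26 to 2020 CPM. Serpinb6b, a paralog of Serpinb6a, had a median of 14.3 CPM and ranged from 0.0897 to 273 CPM. Per kilobase of exon, the median in Arid1a KO lines in vehicle was 25.1 CPM for Serpinb6a, 2.98 CPM for Serpinb9 and 0.226 CPM for Serpinb6b, and under CKI the order was Serpinb9 (78.7), Serpinb6b (61) and Serpinb6a (46.8). Exon lengths came from the GENCODE vM21 annotation and serve only as a scale.

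At the other end, Serpinb13, Serpinb3b and Serpinb3c had 0 counts in all 27 libraries. Serpinb12, Serpinb3a, Serpinb3d, Serpinb6d, Serpinb6e, Serpinb9d, Serpinb9e, Serpinb9f and Serpinb9g stayed below 1 CPM in every library. These 12 members failed the filter on low counts and were not tested, and 14 were. Serpinb12 had 12 counts over the WT libraries and 1 over all tumor libraries. The filter keeps a gene that is high in 1 group, so the tested members are not a sample of the family. Close paralogs can also share reads: of the stretches of 50 bases in a member's annotated transcripts, 52.8% in Serpinb9f, 44.5% in Serpinb9g and 30.8% in Serpinb9d recur in another Serpinb gene, against 8.13% in Serpinb6c, 6.28% in Serpinb1c, 2.81% in Serpinb1a, 2.26% in Serpinb6b and at most 0.506% in Serpinb6a, Serpinb9 and Serpinb9b. Values of the Serpinb9d to Serpinb9g group are therefore uncertain.

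**Figure D1:**
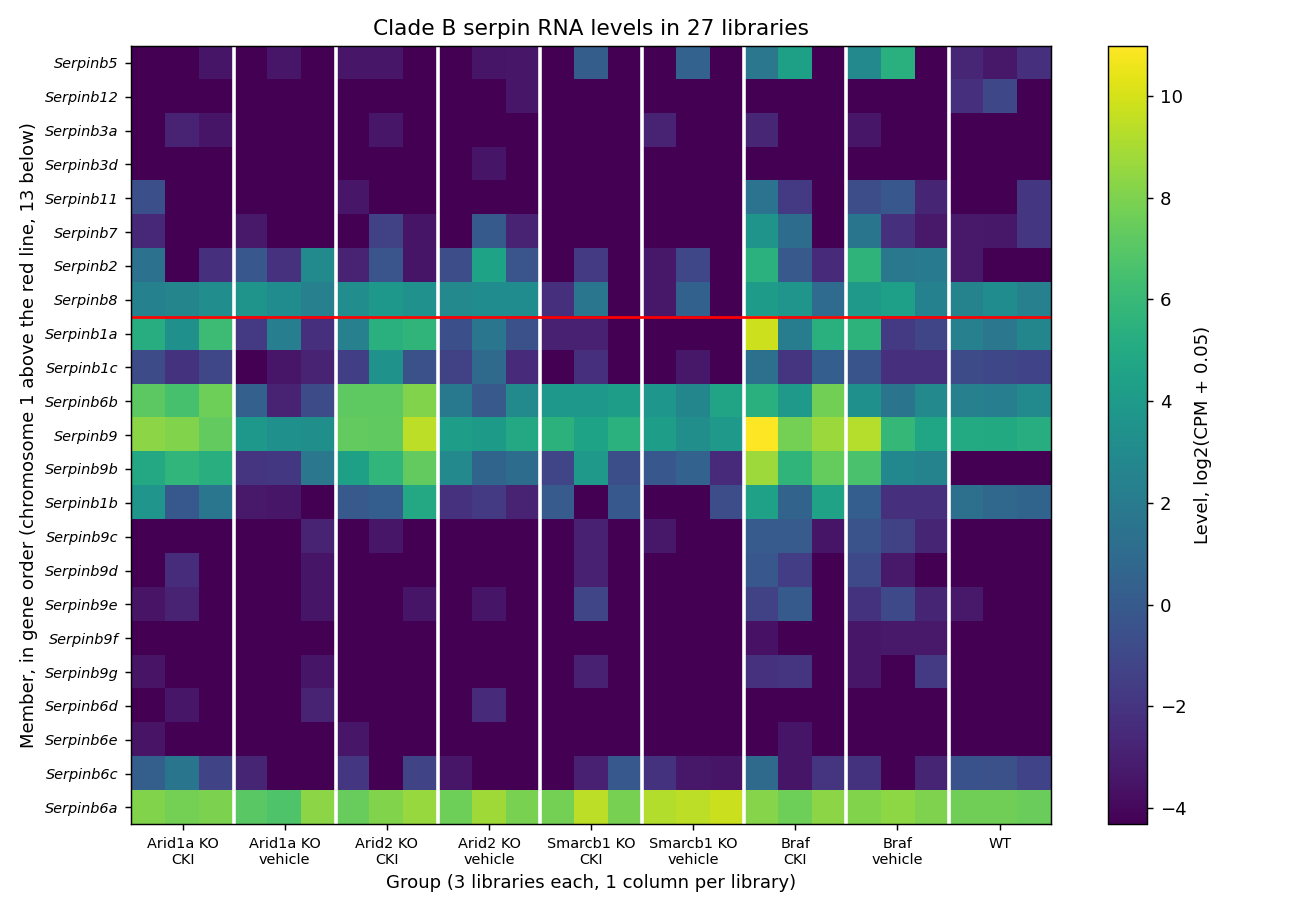
RNA level of the 23 members with any count, as log2(CPM + 0.05), in each library (columns, grouped by genotype and treatment) and in gene order (down the page, chromosome 1 above the red line). Serpinb6a is high in every column, and the block from Serpinb1a to Serpinb1b brightens in the CKI columns of Arid1a KO, Arid2 KO and Braf lines but hardly in those of Smarcb1 KO lines.

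Several chromosome 13 serpins were higher in the CKI arm than in vehicle. If bovine TSH was given with CKI only, its part and that of CKI cannot be told apart. Averaged over the 4 genotypes, 5 of the 14 tested members were called higher under CKI and 0 lower, where called means an adjusted p under 0.05 in edgeR's quasi-likelihood test with Benjamini-Hochberg adjustment over 15634 genes. These were Serpinb6b (log2 change 4.29 ± 0.49 SE, adjusted p = 5.16e-05), Serpinb9 (2.93 ± 0.49, 0.000563), Serpinb1b (4.94 ± 0.91, 0.00107), Serpinb9b (3.73 ± 0.74, 0.00182) and Serpinb6c (3.14 ± 0.88, 0.0145). Of all genes tested, 27.2% were called in this comparison, 13.6% higher and 13.6% lower. Serpinb6c, with at most 4 counts in any vehicle library, passed the filter on low counts through its CKI libraries. Serpinb1b, with at most 25 counts in any vehicle library, leaned on its CKI libraries too. The filter thus favoured higher calls for these members in advance, and the shares of all genes are only a rough scale for the count. A fit with a replicate block pairs the CKI and vehicle libraries of each line. It called 6 members higher, Serpinb1c being added (1.95 ± 0.61, adjusted p = 0.03), and 0 lower, against 42.9% of all genes, 21.9% higher and 21% lower. The Serpinb1c call was lost without B47275, B52482, AB52980 or AB55694 (adjusted p between 0.0514 and 0.054), and without BS53958 both Smarcb1 KO arms are at 0 counts, so that no test was possible. Without lines BS53958 and BS53965 together, Serpinb9b lost its call (log2 change 2.74, adjusted p = 0.0519). Serpinb6c rests on few reads and lost its call in the fit without the block when Smarcb1 KO line BS53965 was left out (log2 change 2.46, adjusted p = 0.113). Without lines BS53958 and BS53965 together it lost its call in both fits (log2 change 1.61 without the block and 1.49 with it).

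Serpinb6b had the smallest adjusted p of the members in that average. In Arid1a KO lines BA45198, BA47473 and BA49112 it had 138, 90.7 and 195 CPM under CKI, against 1.24, 0.0897 and 0.512 CPM in vehicle. In Arid2 KO lines AB51189, AB52980 and AB55694 it had 144, 148 and 273 CPM under CKI, against 3.61, 0.917 and 7.97 CPM in vehicle. Every CKI library of these 6 lines stood above every vehicle library. In Braf lines B47275, B48051 and B52482 the levels were 42.4, 14.6 and 208 CPM under CKI, against 10.3, 2.88 and 7.43 CPM in vehicle. In Smarcb1 KO lines BS53736, BS53958 and BS53965 they were 14.3, 14.3 and 18.7 CPM under CKI, against 13.1, 6.5 and 24.7 CPM in vehicle. The groups did not overlap in Braf lines and overlapped in Smarcb1 KO lines, where 1 of 3 lines was lower under CKI. WT libraries had 4.97, 4.61 and 7.89 CPM. The log2 change was 7.87 ± 1.16 in Arid1a KO (adjusted p = 0.00112), 5.50 ± 1.02 in Arid2 KO (0.0423), 3.70 ± 0.94 in Braf (0.175; 3.04 ± 0.66 and 0.0412 with the replicate block), and 0.10 ± 0.85 in Smarcb1 KO lines (edgeR). The Arid2 KO call was lost without any 1 of its lines (adjusted p between 0.139 and 0.298) and kept in the blocked fit without each (between 0.0215 and 0.0281). The blocked Braf call was lost without any 1 of its lines (adjusted p between 0.094 and 0.223).

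Serpinb9 was higher under CKI in all 12 lines. In Arid1a KO lines, in the same line order, it had 322, 275 and 158 CPM under CKI, against 14.3, 10.4 and 9.94 CPM in vehicle. In Arid2 KO lines it had 155, 154 and 705 CPM under CKI, against 18.9, 15.9 and 30.3 CPM in vehicle. The groups did not overlap in either genotype. In Smarcb1 KO lines it had 44.9, 23.4 and 43.9 CPM under CKI, against 18.5, 9.26 and 15.5 CPM in vehicle. In Braf lines it had 2020, 224 and 402 CPM under CKI, against 625, 58.7 and 26.7 CPM in vehicle. Line B47275 was the highest in both treatments, so the Braf groups overlapped although each line was higher under CKI. Within lines the fold of CKI over vehicle lay between 15.9 and 26.3 in Arid1a KO, 8.17 and 23.3 in Arid2 KO, 2.43 and 2.83 in Smarcb1 KO and 3.24 and 15.1 in Braf lines. Serpinb9 was called in Arid1a KO lines (log2 change 4.45 ± 1.05, adjusted p = 0.0113; 0.0768 to 0.0948 without any 1 line) and, with the replicate block, also in Arid2 KO (3.61 ± 0.43, 0.00385) and Braf lines (2.49 ± 0.42, 0.0194). Without the block the adjusted p was 0.103 in Arid2 KO and 0.467 in Braf lines (edgeR). The blocked Braf call was lost without B48051 (adjusted p = 0.0571) or B52482 (0.0918).

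Serpinb9b, a mouse paralog reported to inhibit granzyme M, had 30, 52.9 and 40.1 CPM under CKI in Arid1a KO lines, against 0.206, 0.224 and 3.37 CPM in vehicle. In Arid2 KO lines it had 20.9, 52.7 and 160 CPM under CKI, against 7.31, 1.46 and 2.1 CPM in vehicle, and in Braf lines 433, 50.7 and 167 CPM under CKI, against 95.4, 7.16 and 5.62 CPM in vehicle. Each of these 9 lines was higher under CKI, by 2.86-fold to 236-fold. In Smarcb1 KO lines it had 0.41, 15.7 and 0.593 CPM under CKI, against 0.854, 1.36 and 0.129 CPM in vehicle, with line BS53958 far above the others. The change was called in Arid1a KO lines (log2 5.00 ± 1.57, adjusted p = 0.042; 0.0816 to 0.211 without any 1 line) and not in Arid2 KO lines (4.43 ± 1.51, 0.205 by edgeR, and 0.0583 with the replicate block).

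The Serpinb1 genes are the mouse forms of the leukocyte elastase inhibitor, which blocks neutrophil elastase, cathepsin G and proteinase 3. Serpinb1a had 37.5, 10.4 and 72 CPM under CKI in Arid1a KO lines, against 0.258, 4.71 and 0.171 CPM in vehicle. It had 4.93, 42.7 and 51.9 CPM under CKI in Arid2 KO lines, against 0.616, 3.21 and 0.638 CPM in vehicle, and 889, 4.2 and 42.1 CPM under CKI in Braf lines, against 47, 0.258 and 0.413 CPM in vehicle. All 9 lines were higher under CKI, by 2.21-fold to 422-fold, and the spread between lines was as wide. No genotype passed the test without the block (edgeR adjusted p = 0.13 in Arid1a KO, 0.334 in Arid2 KO and 0.422 in Braf lines), and Arid1a KO lines passed it with the replicate block (log2 change 5.24 ± 1.51, adjusted p = 0.0287; 0.136 without BA45198 or without BA49112). In Smarcb1 KO lines Serpinb1a had at most 2 counts in any library, and WT libraries had 5.02, 3.36 and 6.39 CPM. Serpinb1b had lower group means than Serpinb1a except in Smarcb1 KO lines. It had 12.5, 0.881 and 3.11 CPM under CKI in Arid1a KO lines, against 0.0516, 0.0448 and 0 CPM in vehicle (called higher, edgeR adjusted p = 0.0287; 0.111 to 0.166 without any 1 line). The vehicle value rests on 2 counts over the group. In Arid2 KO lines Serpinb1b had 0.908, 1.16 and 29.5 CPM under CKI, against 0.176, 0.25 and 0.0911 CPM in vehicle, and in Braf lines 21.6, 1.42 and 22.6 CPM, against 1.15, 0.155 and 0.155 CPM. All 9 of these lines were higher under CKI. Smarcb1 KO lines had 1.02, 0 and 0.89 CPM under CKI, against 0, 0 and 0.559 CPM in vehicle, and WT libraries 2.43, 1.75 and 1.5 CPM. Serpinb1c had 0.529, 0.185 and 0.425 CPM under CKI in Arid1a KO lines, against 0, 0.0448 and 0.0853 CPM in vehicle. That change was called with the replicate block (adjusted p = 0.0451; 0.0928 to 0.178 without any 1 line) and not without it (0.2).

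Serpinb6c, another paralog of Serpinb6a, stayed at 3.06 CPM or less. It had 1.17, 3.06 and 0.383 CPM under CKI in Arid1a KO lines, against 0.103, 0 and 0 CPM in vehicle, and 0.216, 0 and 0.386 CPM under CKI in Arid2 KO lines, against 0.044, 0 and 0 CPM in vehicle. It had 0, 0.0822 and 0.89 CPM under CKI in Smarcb1 KO lines, against 0.19, 0.0485 and 0.043 CPM in vehicle, and 1.94, 0.0416 and 0.207 CPM under CKI in Braf lines, against 0.184, 0 and 0.103 CPM in vehicle. The groups were apart in Arid1a KO lines and overlapped in the others, and WT libraries had 0.673, 0.652 and 0.376 CPM. Serpinb6a, at the end of the same order of genes, showed no common direction. It had 273, 216 and 253 CPM under CKI in Arid1a KO lines, against 136, 109 and 315 CPM in vehicle, 174, 268 and 394 CPM in Arid2 KO lines, against 196, 451 and 236 CPM, and 293, 197 and 320 CPM in Braf lines, against 273, 335 and 265 CPM. The groups overlapped in each of these genotypes, and the average change over genotypes was not called (log2 -0.16 ± 0.23, edgeR adjusted p = 0.649).

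**Figure D2:**
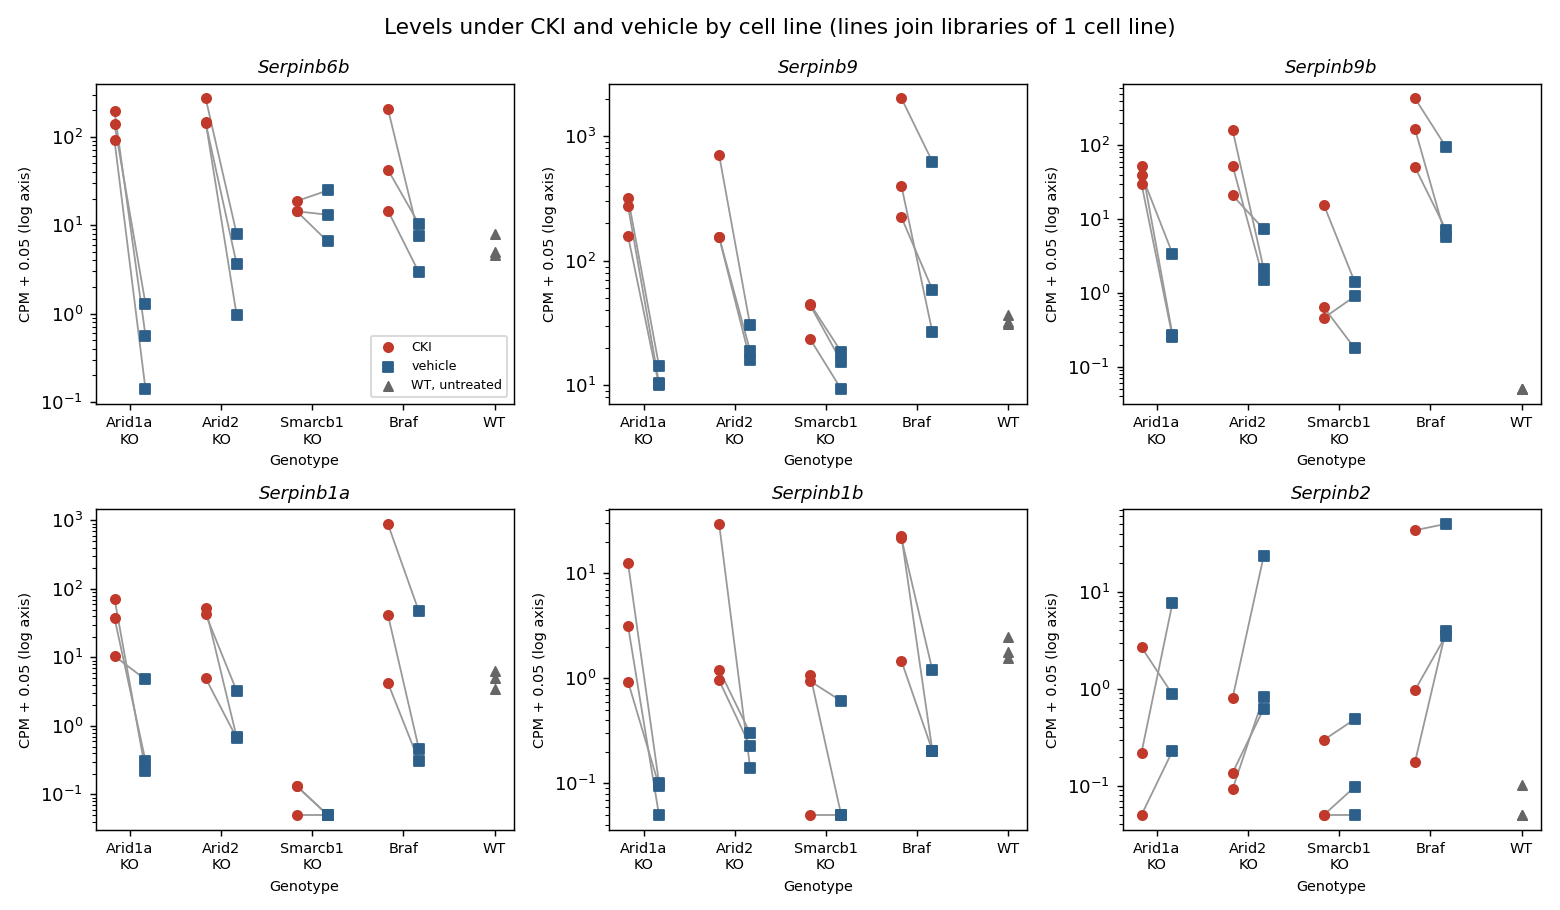
Level of 6 members, as CPM + 0.05 on a log axis, in each genotype under CKI (circles, left) and vehicle (squares, right), with grey lines joining the libraries of 1 cell line and triangles for WT. Lines slope down from CKI to vehicle in every Arid1a KO, Arid2 KO and Braf line for Serpinb6b, Serpinb9, Serpinb9b, Serpinb1a and Serpinb1b, whereas Serpinb2 was lower under CKI in 8 of these 9 lines.

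By genotype, Arid1a KO lines had 5 members called higher under CKI (7 with the replicate block) and 0 lower. Of all genes 13.9% were called there (32.3% blocked), 7.08% higher (17% blocked) and 6.84% lower (15.3% blocked). Arid2 KO lines had 1 called higher (2 blocked) and 0 lower, beside 0.141% of all genes (6.27% blocked), 0.0959% higher (3.52% blocked) and 0.0448% lower (2.76% blocked). Smarcb1 KO lines had 0 called (0 blocked), beside 0.032% of all genes (1.06% blocked), 0.0256% higher (0.486% blocked) and 0.0064% lower (0.569% blocked). Braf lines had 0 called, beside 0% of all genes, and 2 higher and 0 lower with the block, beside 2.48%, 1.42% higher and 1.06% lower. The 5 members in Arid1a KO lines were Serpinb6b, Serpinb9, Serpinb9b, Serpinb1b and Serpinb6c, and 1 of them, Serpinb6b, kept its call when any 1 of the 3 lines was left out. For Serpinb6c, with 2 counts over the vehicle group, the adjusted p of 0.0492 became 0.104 to 0.3. At an unadjusted p under 0.05, 3 members were higher in Braf lines (Serpinb6b, Serpinb1a and Serpinb1b) and 0 in Smarcb1 KO lines. DESeq2 called 2 members in Braf lines (Serpinb6b and Serpinb1b) and 0 in Smarcb1 KO lines. With members that were at 0 throughout a group set at their bound and those at or under 3 counts in both groups left out, the median log2 change was 4.45 over 11 members in Arid1a KO, 3.35 over 11 in Arid2 KO and 1.89 over 14 in Braf lines. In Smarcb1 KO lines it was 1.0 over 9 members. The median over all genes tested lay between 0.00 and 0.03. Some members, such as Serpinb6c and Serpinb1b, passed the filter on low counts through their CKI libraries. The member counts and medians thus leaned towards higher in advance and do not describe the family.

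**Figure D3:**
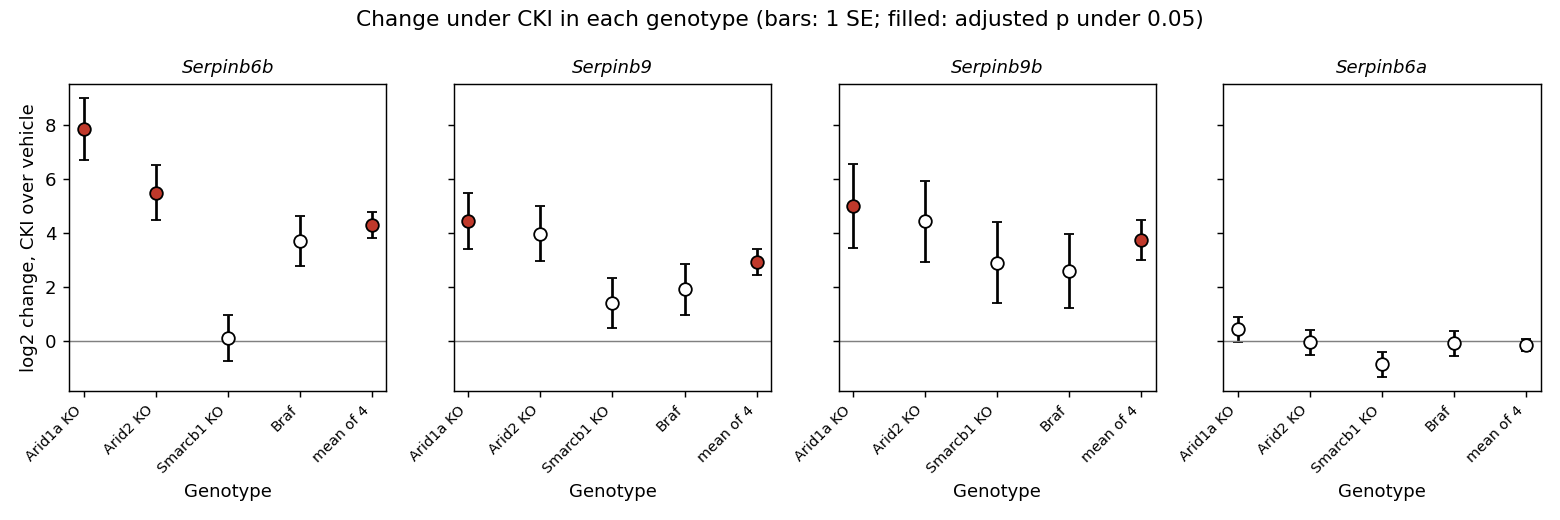
The log2 change of CKI over vehicle (bars, 1 SE) for Serpinb6b, Serpinb9, Serpinb9b and Serpinb6a in each genotype and on average over the 4 genotypes, with filled points for an adjusted p under 0.05 (edgeR, no block). Serpinb6b ranges from 0.10 in Smarcb1 KO to 7.87 in Arid1a KO lines, while Serpinb6a stays within 0.88 of 0.

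The response itself was then compared between genotypes. That of Serpinb6b was smaller in Smarcb1 KO than in Arid1a KO lines: the difference in log2 change was -7.77 ± 1.37 (edgeR adjusted p = 0.0533) without the block and -7.75 ± 0.98 (0.00736) with the replicate block. In the blocked fit it was called without each of the 6 lines in turn (adjusted p between 0.0112 and 0.0379). Without lines BS53958 and BS53965 together, BS53736 is the only Smarcb1 KO line left, and the call was not kept. For Serpinb9 the same difference was -3.07 ± 1.32 (adjusted p = 0.332), and -3.04 ± 0.57 with the replicate block (adjusted p = 0.0244), a call that was lost without any 1 line (between 0.0505 and 0.0789). Of all genes, 0.0192% were called for this difference, and 3.59% with the block, 1.32% higher and 2.28% lower. Against Arid2 KO lines the Serpinb6b difference was -5.40 ± 1.27 (adjusted p = 0.486; 0.0686 blocked), and 0 members were called. Against Braf lines it was -3.60 ± 1.23 in Smarcb1 KO (adjusted p = 0.923; 0.397 blocked) and 4.17 ± 1.28 in Arid1a KO lines (0.698; 0.0734 blocked), and 0 members were called in any of the 3 differences from Braf, with or without the block. In those 3 differences 0% of all genes were called without the block and at most 0.147% with it. At an unadjusted p under 0.05 the members were Serpinb6b in Arid1a KO and in Smarcb1 KO and 0 in Arid2 KO. DESeq2 called 0 members there and Serpinb6b in both differences of Smarcb1 KO from another KO. These comparisons share the libraries of each genotype, and the ones between KO genotypes were added after the levels had been seen.

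Other measures moved with CKI too. MAPK output genes, such as the phosphatase gene Dusp6, were called lower under CKI for 10 and higher for 2 of 19 on average over genotypes. Their summed level was 1990 to 2830 CPM under CKI and 4010 to 4990 CPM in vehicle in Arid1a KO lines, and 2440 to 4530 CPM under CKI and 4280 to 5700 CPM in vehicle in Smarcb1 KO lines, where the arms overlapped. Fibroblast markers were called higher for 4 of 8 (Col1a1, Col1a2, Col3a1 and Dcn). They summed to 587 to 1330 CPM under CKI and 21.8 to 67.3 CPM in vehicle in Arid2 KO lines. In Arid1a KO lines the sums were 2140 to 7050 CPM under CKI and 1350 to 3720 CPM in vehicle, in Smarcb1 KO lines 15 to 119 CPM and 6.6 to 667 CPM, and in Braf lines 21.9 to 2130 CPM and 5.46 to 243 CPM. Their part in the serpin result was not tested. The leukocyte markers summed to 2.38 to 18.6 CPM under CKI and 3.36 to 25.2 CPM in vehicle, with Csf1r and Lyz2 called higher and S100a8 lower of 6 tested, and Ptprc reached at most 0.581 CPM in any tumor library. Thyroid follicular markers were called higher for 2 of 6 tested (Tg and Tshr), stratified epithelium markers lower for 1 of 6 (Sprr1a), and 0 of 10 simple epithelium and 0 of 5 endothelium markers were called, all by edgeR without the block (2 and 1 lower with it). Endothelium markers summed to 57.2 CPM under CKI and 666 CPM in vehicle at most in Smarcb1 KO lines, and to at most 6.46 CPM in any library of the other tumor genotypes. Gzmb, which encodes the protease that Serpinb9 inhibits, reached at most 0.184 CPM in any tumor library.

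In vehicle the KO lines were compared with Braf lines. Smarcb1 KO lines had 4 members called lower (Serpinb9, Serpinb9b, Serpinb8 and Serpinb1a) and 0 higher, where 18.1% of all genes were called, 11.2% lower and 6.93% higher. Arid1a KO lines had 1 called lower (Serpinb9) and 0 higher, beside 3.63% of all genes, 2.65% lower and 0.979% higher. Arid2 KO lines had 0 called, beside 0.0512% of all genes, 0.0448% lower and 0.0064% higher, with 5 members lower at an unadjusted p under 0.05 and 2 (Serpinb5 and Serpinb9) called lower by DESeq2. The median log2 change over the 14 tested members was -4.14 in Smarcb1 KO, -3.44 in Arid1a KO and -1.96 in Arid2 KO lines with all-zero groups at their bound, beside -0.02 to -0.01 over all genes. Serpinb5, Serpinb7, Serpinb9c and Serpinb11 passed the filter on low counts through their Braf libraries. The medians and the counts of lower members were thus tilted towards lower in advance and do not describe the family. Cell type markers moved in these contrasts too. In Arid1a KO lines the fibroblast markers Col1a2 and Dcn were called higher than in Braf lines (2 of 8 tested; list median log2 change 5.11), with sums of 1350 to 3720 CPM in Arid1a KO and 5.46 to 243 CPM in Braf lines. Simple epithelium markers summed to 320 to 405 CPM in Arid1a KO, 84.6 to 1020 CPM in Arid2 KO and 1590 to 9810 CPM in Braf lines, and their list median log2 change was -7.27 in Arid1a KO lines. Their part in the serpin differences was not tested.

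Serpinb9 had 18.5, 9.26 and 15.5 CPM in Smarcb1 KO lines, against 625, 58.7 and 26.7 CPM in Braf lines (log2 change -4.05 ± 1.03, edgeR adjusted p = 0.0127). In Arid1a KO lines it had 14.3, 10.4 and 9.94 CPM (log2 change -4.35 ± 1.04, adjusted p = 0.0313 against Braf). Both groups lay below every Braf library, but line B47275 set the size: without it the log2 change was -1.55 in Smarcb1 KO (adjusted p = 0.0975) and -1.85 in Arid1a KO lines (0.14). Leaving out any of the 3 Arid1a KO lines also ended the Arid1a KO call (adjusted p between 0.102 and 0.157), as did BS53958 (0.0515) or BS53965 (0.0535) for Smarcb1 KO. Serpinb9b had 0.854, 1.36 and 0.129 CPM in Smarcb1 KO lines, against 95.4, 7.16 and 5.62 CPM in Braf lines (log2 change -5.54 ± 1.62, adjusted p = 0.0263; -3.01 and 0.181 without B47275, 0.0702 without BS53736 and 0.088 without BS53965).

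Serpinb8, whose human counterpart inhibits the convertase furin, gave the evenest contrast. It had 0.0475, 1.31 and 0 CPM in Smarcb1 KO lines, against 15.3, 19.7 and 5.16 CPM in Braf lines, without overlap (log2 change -4.87 ± 1.33, adjusted p = 0.0186; -4.31 and 0.0547 without BS53736). Arid1a KO lines at 5.03 to 11.9 CPM, Arid2 KO lines at 7.31 to 8.7 CPM and WT libraries at 4.94 to 8.47 CPM all stood above the Smarcb1 KO lines. Under CKI it had 0.164, 3.12 and 0 CPM in Smarcb1 KO lines, 5.25, 6.21 and 9.15 CPM in Arid1a KO lines, 9.03, 14.4 and 10.5 CPM in Arid2 KO lines and 17.9, 12.5 and 1.99 CPM in Braf lines. Serpinb1a had 0 counts in all Smarcb1 KO vehicle libraries, against 47, 0.258 and 0.413 CPM in Braf lines, which makes it at least 344-fold lower by the group means with 3 counts over the group as the floor. The mean rests on B47275, without which the bound is 7.25-fold, and the call (adjusted p = 0.0322) was lost without that line (0.14) or without any 1 Smarcb1 KO line (0.0885 to 0.1).

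Serpinb6a ran the other way. It had 590, 706 and 865 CPM in Smarcb1 KO lines, against 273, 335 and 265 CPM in Braf lines in vehicle. The groups did not overlap, and the difference (log2 1.30 ± 0.46) had an adjusted p of 0.0587 in edgeR and 0.0352 in DESeq2. Under CKI the Smarcb1 KO lines had 224, 708 and 234 CPM, so lines BS53736 and BS53965 were lower than in vehicle while BS53958 was not, and the change was not called (log2 -0.88 ± 0.46, adjusted p = 0.65; 0.227 with the replicate block). Simple epithelium markers, including Krt18, summed to 0.258 to 388 CPM in Smarcb1 KO lines and 1590 to 9810 CPM in Braf lines in vehicle, with 2 of 10 called lower, and their part in these differences was not tested.

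**Figure D4:**
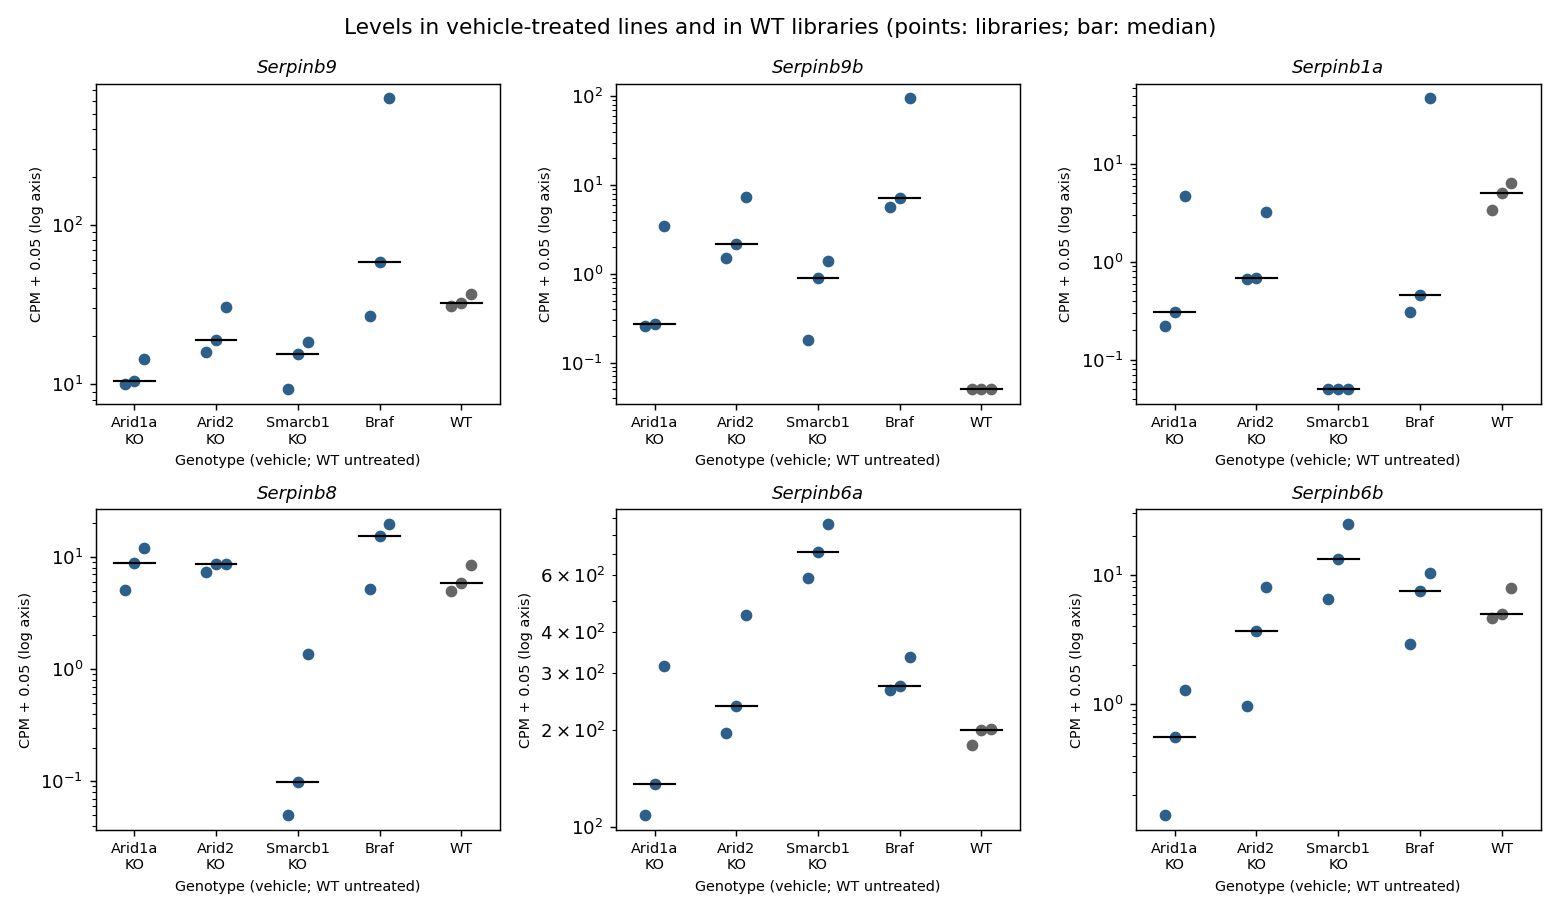
Level of 6 members, as CPM + 0.05 on a log axis, in vehicle-treated KO and Braf lines and in WT libraries (points, libraries; bar, median). Smarcb1 KO lines lie lowest for Serpinb1a and Serpinb8 and highest for Serpinb6a, and 1 Braf line stands far above the others for Serpinb9, Serpinb9b and Serpinb1a.

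Under CKI, Smarcb1 KO lines had 5 members called lower than Braf lines (Serpinb1a, Serpinb6b, Serpinb7, Serpinb9 and Serpinb9b) and 0 higher, where 23.1% of all genes were called, 13.1% lower and 10.1% higher. Serpinb7, like the tested Serpinb5, Serpinb9c and Serpinb11, passed the filter on low counts through its Braf libraries. Lower calls against Braf lines were thus favoured in advance for these members, and the count does not describe the family. Serpinb9 had 44.9, 23.4 and 43.9 CPM in Smarcb1 KO lines, against 2020, 224 and 402 CPM in Braf lines (log2 change -4.58 ± 1.05, adjusted p = 0.00698), and kept its call without each line in turn. Serpinb1a had 0.0819, 0.0822 and 0 CPM in Smarcb1 KO lines, against 889, 4.2 and 42.1 CPM in Braf lines (adjusted p = 0.0117), and also kept its call without each line. Serpinb9b averaged 5.57 ± 8.78 CPM in Smarcb1 KO lines, against 217 ± 196 CPM in Braf lines (SD, n = 3 each; log2 change -5.23 ± 1.57, adjusted p = 0.0252), and the call was lost without B47275 (0.0605), BS53736 (0.0761) or BS53965 (0.0787). Serpinb6b (log2 change -2.52 ± 0.89, adjusted p = 0.0494) overlapped between the groups and lost its call without any line but B48051 (adjusted p between 0.0598 and 0.468); the log2 change was -0.90 without B52482. Serpinb7 had 0 counts in Smarcb1 KO lines, against 12, 2.08 and 0 CPM in Braf lines, and is at least 62.5-fold lower, or 13.9-fold without B47275 (adjusted p = 0.0492, 0.0628 to 0.125 without any 1 line but B52482). The 2 shallow CKI libraries are in this comparison, and without lines BS53958 and BS53965 only Serpinb8 was called (log2 change -6.02, adjusted p = 0.0167). Arid1a KO and Arid2 KO lines under CKI had 0 members called against Braf lines (0.736% and 0.064% of all genes called, 0.243% and 0.0192% higher, 0.493% and 0.0448% lower), with 3 and 5 members lower at an unadjusted p under 0.05 and 1 (Serpinb5) and 0 called by DESeq2.

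Braf lines in vehicle were set against WT libraries in a model over all 27 libraries that tested 16821 genes. Of 14 members tested, 5 were called higher (Serpinb2, Serpinb5, Serpinb9, Serpinb9b and Serpinb9c) and 0 lower, where 46.5% of all genes were called, 23.7% higher and 22.8% lower. Serpinb5 and Serpinb9c passed the filter on low counts through their Braf libraries, which favoured a higher call in advance. Serpinb12, with 12 counts over WT libraries and 1 over all tumor libraries, was removed by the filter. The 5 higher and 0 lower therefore do not describe the family. Serpinb9b had 95.4, 7.16 and 5.62 CPM in Braf lines and 0 counts in all WT libraries, which makes it at least 696-fold higher, or at least 123-fold without B47275 (adjusted p = 0.00106). Serpinb9c, at 0.691, 0.361 and 0.103 CPM in Braf lines and 0 counts in WT, was at least 7.43-fold higher, or 4.47-fold without B47275 (adjusted p = 0.0131; 0.1 by DESeq2). Serpinb9 had 625, 58.7 and 26.7 CPM in Braf lines, against 32.5, 31 and 36.7 CPM in WT libraries, and overlapped them; its log2 change of 2.83 ± 0.92 (adjusted p = 0.0166) came to 0.36 without B47275 (0.64) and lost its call without library WT_72246 (0.0569) or WT_72248 (0.0588). WT libraries also hold leukocyte markers at 294 to 472 CPM and Ptprc at 16.9 to 19 CPM, so tissue and culture differ along with genotype, and their parts cannot be told apart.

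Of the chromosome 1 members, only Serpinb2, Serpinb5, Serpinb7, Serpinb8 and Serpinb11 were tested. Among these, 0 were called under CKI in any genotype or on average, with or without the block. Of all genes, 27.2% were called on average (42.9% blocked) and 0% to 13.9% within a genotype (1.06% to 32.3% blocked). Serpinb5, Serpinb7 and Serpinb11 were at the floor in most lines, so a contrast with chromosome 13 cannot be read from this count. Serpinb2, the plasminogen activator inhibitor of type 2, had 50.2, 3.5 and 3.92 CPM in Braf lines in vehicle and 1 count in all WT libraries together (called higher by edgeR, adjusted p = 0.0111, and not called by DESeq2). It had 2.64, 0 and 0.17 CPM under CKI in Arid1a KO lines, against 0.826, 0.179 and 7.64 CPM in vehicle, and 0.0864, 0.759 and 0.0429 CPM under CKI in Arid2 KO lines, against 0.572, 23.2 and 0.775 CPM in vehicle. In Braf lines it had 43.2, 0.916 and 0.124 CPM under CKI, against 50.2, 3.5 and 3.92 CPM in vehicle. It was lower under CKI in 8 of these 9 lines, the exception being BA45198, and Smarcb1 KO lines had at most 0.436 CPM. Part of its transcript (10.4% of the 50-base stretches) recurs in Serpinb10, so its counts are uncertain to that extent. The average change was not called (log2 -1.89 ± 1.12, edgeR adjusted p = 0.219; -2.30 ± 0.85 and 0.0531 with the replicate block). Serpinb5, or maspin, a clade member of epithelial cells that inhibits no protease, was above 3 counts in 3 of 12 lines. It had 3.32 and 20.3 CPM under CKI and 7.23 and 41.5 CPM in vehicle in Braf lines B47275 and B48051, and 1.07 CPM under CKI and 1.36 CPM in vehicle in Smarcb1 KO line BS53958. Braf line B52482 had 0 counts in both treatments, and Epcam there was 0.331 CPM under CKI and 0.361 CPM in vehicle. Its call against WT (log2 7.20 ± 2.37, adjusted p = 0.0176) was lost without B48051 (0.0604) or any 1 WT library (0.0537 to 0.0688). Serpinb7 had 12, 2.08 and 0 CPM under CKI in Braf lines, against 2.99, 0.155 and 0.0516 CPM in vehicle, 0.357 CPM under CKI and 0.959 CPM in vehicle in Arid2 KO line AB52980, and at most 0.215 CPM in any other library. Serpinb11 likewise had its highest levels in Braf lines, at up to 2.75 CPM under CKI and 0.824 CPM in vehicle. Serpinb9c, the chromosome 13 member with a similar spread, had 0.988, 0.999 and 0.0414 CPM under CKI in Braf lines and at most 0.0853 CPM in any KO library.

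Genes of other clades and of the proteases were counted beside them. Serpina3n, a secreted serpin of clade A, was called higher under CKI on average over genotypes (log2 change 2.96 ± 0.96, edgeR adjusted p = 0.0287). In the plasminogen activator system, the activator gene Plat (log2 change -1.90 ± 0.38, adjusted p = 0.00187) and the urokinase receptor gene Plaur (-1.48 ± 0.44, 0.0204) were called lower. Among candidate protease targets, 3 of 16 tested were called lower, namely Plat, Ctsl (-1.11 ± 0.29, 0.00996), which encodes cathepsin L, and Casp8 (-0.43 ± 0.14, 0.0308), and 0 higher, beside the 13.6% of all genes called lower in this comparison. With the replicate block the list had 5 lower and 1 higher, beside 21% and 21.9% of all genes. In vehicle, Smarcb1 KO lines had Ctsb, Ctsh and Casp4 called lower than in Braf lines, with Ctsh, an aminopeptidase of lysosomes, averaging 9.32 CPM in lines without Smarcb1 and 136 CPM in Braf lines (log2 change -3.88 ± 0.86, adjusted p = 0.00604).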

How the data were processed

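RNA was extracted with TRIzol and made into libraries with a TruSeq kit, per the labels' protocols. The authors deposited 1 table of raw read counts, with a gene symbol per line and 27 libraries. STAR 2.4, HTSeq 0.6.1, DESeq2 and build mm9 are named in the submitters' processing notes; the sources used here do not give the strand setting or annotation. All columns matched a sample by title, and 0 did not.

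The analysis used edgeR 4.0.16 (with limma 3.58.1, under R 4.3.3): filterByExpr by group, TMM scaling, 1 mean per group, and the quasi-likelihood test with Benjamini-Hochberg adjustment over all genes tested. The 24 tumor libraries shared 1 fit (15634 genes, 8 groups), and WT entered only its own comparison (16821 genes, 9 groups). Standard errors derive from the F statistic and are approximate. A gene at 0 throughout a group was set to 3 counts over that group, and its fold is a lower bound that covers counting error only. Nothing says that lines of a genotype came from separate animals, so p-values measure the spread between lines. CKI and vehicle libraries are paired by cell line, as the titles give, and their deviations from the group means correlated at 0.259 to 0.773 in all 12 lines; the replicate block left 8 residual degrees of freedom. The test without the block was checked on simulated counts with a fixed spread and no differences between lines. Error rates for members that vary widely between lines, and for the blocked fit, were not checked.

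The members, the gene lists, the comparisons and the rule for naming genes (every library's value for members called in any comparison and for the 3 with the highest median level, ranges for the others, and up to 4 called genes of each other list) were chosen with earlier results of these data known, and 2 of the 17 comparisons, the responses of Smarcb1 KO against Arid1a KO and Arid2 KO lines, were added after the levels were seen. Alternatives were RLE size factors, DESeq2 1.42.0, no filter on low counts, at least 1 CPM in at least 6 libraries, the compared groups alone, lines BS53958 and BS53965 left out, each line left out, and the block. A result among the genes of the related lists is not reported here.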

Additional observations from a re-analysis of the deposited data

Results flagged for a closer look

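In the fit with the cell line as a replicate block, the response to CKI differed between Smarcb1 KO and Arid1a KO lines by a test of the difference itself. The difference was -7.75 on the log2 scale for Serpinb6b (adjusted p = 0.00736) and -3.04 for Serpinb9 (adjusted p = 0.0244). This comparison was added after the levels had been seen. Without the block neither was called (edgeR adjusted p = 0.0533 for Serpinb6b and 0.332 for Serpinb9), and the blocked Serpinb9 call was lost without any 1 line (0.0505 to 0.0789). Neither blocked call was kept without lines BS53958 and BS53965 together, where BS53736 is the only Smarcb1 KO line. Serpinb6b was 112-fold and 381-fold higher under CKI in the Arid1a KO lines with over 3 counts in both libraries, against 0.758-fold to 2.2-fold in Smarcb1 KO lines.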

How the results depend on the processing

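Of 26 calls of a member in a comparison, 6 were kept under every alternative that gave them a value and 0 reversed: Serpinb2 and Serpinb9b in Braf vehicle against WT, Serpinb6b in Arid1a KO lines under CKI, and Serpinb1b, Serpinb6b and Serpinb9 under CKI on average over the genotypes. DESeq2 gave Serpinb2 no adjusted p against WT and so did not call it. The counts of members called that moved by over 1.5 times are given next, and the cause was not tested beyond the smaller number of samples in some fits. With DESeq2, 3 members were called for Braf vehicle against WT, 4 for Arid1a KO and 2 for Arid2 KO against Braf in vehicle, 2 for CKI in Braf and 4 in Arid2 KO lines, 1 for Arid1a KO and 8 for Smarcb1 KO against Braf under CKI, and 1 for each response difference of Smarcb1 KO from Arid1a KO and Arid2 KO. With the compared groups alone the counts were 3 for Braf against WT, 0 and 1 for Arid1a KO and Smarcb1 KO against Braf in vehicle, 0 for CKI in Arid2 KO lines, 0 for Smarcb1 KO against Braf under CKI and 2 for the Smarcb1 KO response against Arid1a KO. Without lines BS53958 and BS53965 they were 0 and 1 for Arid1a KO and Smarcb1 KO against Braf in vehicle, 0 for CKI in Arid2 KO lines, 3 for the average over genotypes (Serpinb6c and Serpinb9b lost) and 1 for Smarcb1 KO against Braf under CKI. With no filter they were 3 and 0 for CKI in Arid1a KO and Arid2 KO lines and 3 for Smarcb1 KO against Braf under CKI. RLE size factors and the CPM minimum each gave 1 for the Smarcb1 KO response against Arid1a KO.

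With the cell line as a replicate block, in which samples are paired, 2 members were called for CKI in Braf lines, 2 in Arid2 KO lines and 2 for the Smarcb1 KO response against Arid1a KO, and without lines BS53958 and BS53965 this fit gave 1 and 2 in Braf and Arid2 KO lines. Leaving out each line or library in turn gave 3 to 7 members for Braf against WT, 0 to 3, 0 to 3 and 1 to 8 for Arid1a KO, Arid2 KO and Smarcb1 KO against Braf in vehicle, 1 to 1 for CKI in Arid1a KO and 0 to 0 in Arid2 KO lines, 4 to 6 for the average over genotypes, 0 to 2 and 2 to 6 for Arid1a KO and Smarcb1 KO against Braf under CKI, and 0 to 1 for the Smarcb1 KO response against Arid1a KO. Of 2842 values of single members under an alternative, 2706 stayed on their side of the threshold, 82 lost and 54 gained a call. In CKI line BS53965, 1 count equals 0.297 CPM, so lower levels were not detectable there.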
